A study of Mus musculus with 2 samples.

Results

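Genes for handling extracellular ATP and adenosine were compared in TR1 cells (type 1 regulatory T cells, CD4 T cells that make IL-10) with an intact or an impaired IL-10 receptor. The set was chosen by name and has 9 genes, the ectonucleotidases and nucleoside-degrading enzymes Entpd1, Nt5e, Ada and Cd38 and the purine receptors Adora2a, Adora2b, P2rx7, P2rx4 and P2ry10. Of these, 6 had a probe set that the platform annotation gives to them alone, out of 19937 genes with such a value. Adora2a, Adora2b and Cd38 were not analysed here. Each of the 6 had a single probe set, so no choice between probe sets was needed.

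Both samples were TR1 cells of the mouse small intestine after injection of anti-CD3 antibody (clone 2C11), 15 μg into the peritoneum on 2 occasions, which activates T cells. The wildtype sample came from mice with an unaltered IL-10 receptor. The impaired sample came from CD4-DNIL-10R transgenic mice, in which a dominant-negative IL-10 receptor is driven by regulatory elements of Cd4. The block is thus meant to act in T cells, and which cells it reached was not measured here. Mice were killed either 4 or 48 hours after that course, and the labels do not say which time belongs to which sample, so an effect of time and an effect of genotype cannot be told apart. The labels give neither the animals' age, strain or number nor the way the cells were sorted.

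ATP leaves activated, stressed or dying cells and acts on P2X ion channels and P2Y receptors as a signal of damage. CD39 (Entpd1) removes phosphates from ATP and ADP to give AMP, CD73 (Nt5e) turns AMP into adenosine, and adenosine deaminase (Ada) turns adenosine into inosine. Adenosine dampens T cells through receptors that raise cyclic AMP, and regulatory T cells are known to use CD39 and CD73 in suppression.

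RNA was measured on 1 array per genotype, with no replicates. Each level is a log2 RMA value, a probe set's brightness after background correction and normalization, and each difference is impaired minus wildtype, so that 1 stands for a 2-fold difference. There is no replicate error to weigh a difference by, no test was possible, and no difference below is shown to be one of genotype. Genes were kept when the brighter sample reached 6.91, the median of all 34760 probe sets, which left 11124 genes. Of the 6 genes, 6 passed this floor, and the wildtype as well as the impaired value of each lay above it.

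The enzyme that starts the breakdown of ATP was brighter in the impaired sample, the enzyme in the middle was nearly equal and the enzyme that removes adenosine was dimmer. Among the receptors, P2rx4 was brighter, P2rx7 nearly equal and P2ry10 dimmer. None of the 6 differed by 2-fold, a size that 1.65% of all genes past the floor reached (1.46% brighter in the impaired sample and 0.198% dimmer). Entpd1 alone was at least 1.5-fold brighter, as were 5.89% of all genes, and 0 were 1.5-fold dimmer, against 1.5% of all genes (7.39% in either direction). In all, 4 of the 6 were above 0 and 2 below, with a median of 0.10. The 11124 genes had a median of 0.00, with 50.2% of them above 0 and 49.5% below. With 6 genes, neither count stands clear of these shares.

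**Figure D1:**
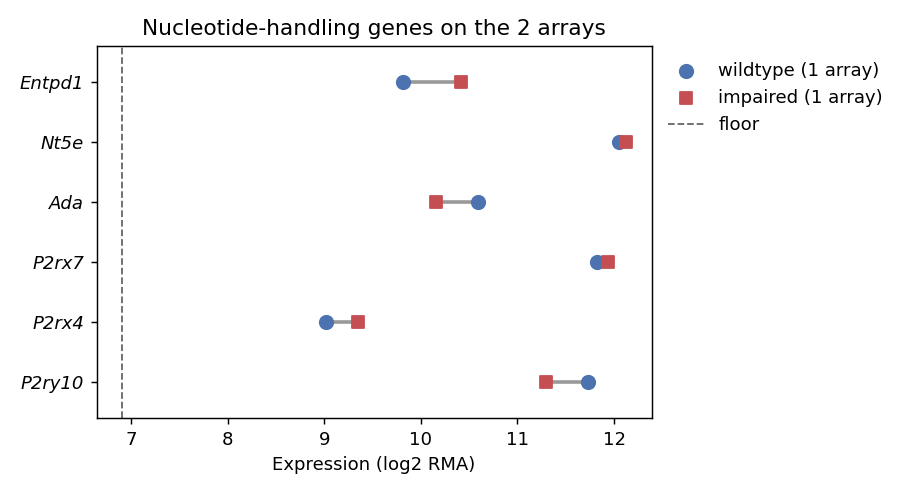
Expression of the 6 genes (rows) on the log2 RMA scale (horizontal axis), with the wildtype array as circles, the impaired array as squares and the floor of 6.91 as a dashed line; each point is 1 array and there are no error bars. Entpd1 and P2rx4 lie to the right in the impaired sample, Ada and P2ry10 to the left, and Nt5e and P2rx7 nearly coincide; positions of different genes are not comparable, since probe sets differ in sensitivity.

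The genes at either end of this range are shown with the 250 bases before their start site, so that the DNA next to the largest differences can be read. These windows come from RefSeq (GRCm38.p6), which held 9 start sites for the 6 genes, and are the upstream part of the gene's own strand, 5′ to 3′. Capitals mark short motifs found on either strand. The first, TTCNNNGAA, is the core bound by STAT factors such as STAT3, which the IL-10 receptor activates. The second, GCGTG, is the core bound by the aryl hydrocarbon receptor. The third, TGACG, is a cyclic AMP response element half-site. The last, TGANTCA, is a loose form of the AP-1 site. The AP-1 site has C or G in the middle, whereas TGANTCA allows any base there. Of 32851 windows of the same length, 7.02% held the first, 28.2% the second, 17.8% the third and 6.75% the last.
Entpd1, first start (chr19:40612116-40612365, plus strand): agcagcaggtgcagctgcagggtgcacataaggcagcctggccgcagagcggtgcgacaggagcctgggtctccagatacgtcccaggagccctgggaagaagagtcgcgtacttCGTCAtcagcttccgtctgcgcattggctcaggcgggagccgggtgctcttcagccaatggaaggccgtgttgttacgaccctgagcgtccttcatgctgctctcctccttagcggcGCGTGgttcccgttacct
Entpd1, second start (chr19:40659520-40659769, plus strand): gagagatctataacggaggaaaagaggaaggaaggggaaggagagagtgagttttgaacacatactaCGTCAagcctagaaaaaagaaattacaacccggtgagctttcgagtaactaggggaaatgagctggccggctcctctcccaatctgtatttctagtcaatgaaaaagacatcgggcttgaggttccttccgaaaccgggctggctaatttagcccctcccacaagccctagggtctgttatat
Ada (chr2:163750240-163750489, minus strand): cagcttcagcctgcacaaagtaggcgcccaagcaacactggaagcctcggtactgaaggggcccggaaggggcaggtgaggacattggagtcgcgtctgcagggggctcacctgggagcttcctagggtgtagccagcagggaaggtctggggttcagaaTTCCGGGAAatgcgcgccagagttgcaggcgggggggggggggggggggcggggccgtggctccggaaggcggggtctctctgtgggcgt
P2ry10, first start (chrX:107088242-107088491, plus strand): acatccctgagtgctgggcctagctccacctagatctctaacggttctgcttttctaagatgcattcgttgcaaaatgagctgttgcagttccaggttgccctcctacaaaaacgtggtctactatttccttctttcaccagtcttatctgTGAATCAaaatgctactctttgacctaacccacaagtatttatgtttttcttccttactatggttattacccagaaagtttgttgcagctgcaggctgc
P2ry10, second start (chrX:107089083-107089332, plus strand): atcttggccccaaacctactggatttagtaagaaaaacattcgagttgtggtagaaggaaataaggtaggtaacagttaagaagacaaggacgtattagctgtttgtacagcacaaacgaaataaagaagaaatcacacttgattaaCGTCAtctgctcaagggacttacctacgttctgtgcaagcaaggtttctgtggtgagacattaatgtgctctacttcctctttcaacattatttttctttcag
The first Entpd1 window held 1 GCGTG and 1 TGACG match, and the second held 1 TGACG match. The Ada window held 1 match to TTCNNNGAA, which begins 90 bases before the start, and none of the other 3 motifs. The first P2ry10 window held 1 TGANTCA match, with A in the middle and so not the AP-1 site proper. The second held 1 TGACG match, which begins 103 bases before the start. GC content was 62.4% and 47.2% in the Entpd1 windows, 67.2% in that of Ada and 43.2% and 38.4% in those of P2ry10, against a median of 52.4% over all windows. Such matches are letters in a window, and binding was not measured here.

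Entpd1, the ectonucleotidase CD39 (probe set 10463070), was at 9.81 (wildtype) and 10.42 (impaired). The difference of 0.61 is a 1.52-fold brighter signal, and 5.49% of all genes past the floor had a difference as high or higher. Among 1973 other genes within 0.5 of its mean level, 3.8% were as far above 0. Its value was thus high among genes of like brightness, yet inside the middle 95% of all differences, which ran from -0.51 to 0.85.

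CD39 is also carried by neutrophils, macrophages, B cells and blood vessel cells, and markers of some of these were brighter in the impaired sample. Of 13 neutrophil markers with a value 11 were brighter and 2 dimmer (median 1.61), led by Mmp8 (2.35) and S100a8 (2.27). Mmp8 passed the floor through the impaired sample alone. Camp (0.13), Csf3r (0.66), Elane (-0.04) and Mpo (-0.08) lay below the floor in both samples. Of 10 B cell markers 9 were brighter and 1 dimmer (0.57), led by Cd74 (1.16) and H2-Eb1 (0.99). These 2 serve MHC class II presentation, which is not particular to B cells. Blnk (0.99) and Cd79b (0.60) passed the floor in both samples, and Ms4a1, Cd79a, Pax5, Cd22 and Cr2 lay below it in both. Of 11 endothelial and stromal markers 8 were brighter and 2 dimmer (0.16). The stromal genes Dcn (1.18) and Pdgfrb (0.69) led these and passed the floor through the impaired sample alone. The endothelial marker Pecam1 (0.40) passed the floor in both samples, at 8.14 (wildtype) and 8.53 (impaired). The endothelial markers Cdh5 (0.19), Kdr (-0.06), Tek (-0.22) and Vwf (0.00) lay below it in both. Of 11 macrophage and monocyte markers 9 were brighter and 2 dimmer (0.21). Lyz2 (1.78) and Tyrobp (1.03) passed 2-fold, 2 of 7 past the floor, against 1.46% of all genes in that direction. Cybb differed by -0.55, Cd68 by 0.09 and Ctss by -0.05, and Csf1r and Adgre1 lay below the floor. The summed linear signal of this list, impaired over wildtype, was 1.01. Of 6 regulatory T cell markers, another population rich in CD39, 5 were brighter and 1 dimmer (0.23). Capg (0.63) and Izumo1r (0.54) led these, and Foxp3 was at 7.83 and 7.87. The part of any of these cells in the Entpd1 signal was not tested. In a mixed sample, more cells of a type and more RNA per cell cannot be told apart.

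Nt5e, the ecto-5′-nucleotidase CD73 (probe set 10587639), was at 12.05 (wildtype) and 12.13 (impaired). Its difference of 0.07 was the smallest of the 6, and 77% of all genes differed by at least as much in either direction. CD73 is abundant on many CD8 T cells, and Cd8a was dimmer in the impaired sample, at 11.42 against 12.12. Cd8b1, the other CD8 chain, was at 9.80 (wildtype) and 9.72 (impaired).

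Ada, adenosine deaminase (probe set 10489391), was at 10.59 (wildtype) and 10.16 (impaired), 1.34-fold dimmer. Its difference of -0.43 was as low or lower in 4.43% of all genes and in 3.61% of 1746 genes of like brightness. The gap between the Entpd1 and Ada differences was 1.03 on the log2 scale. That contrast was picked after the values were seen, and neither gene itself differed by 2-fold. Epithelial cells of the upper intestine also make adenosine deaminase. All 17 enterocyte markers with a value were above 0 (median 0.93), led by Sis (1.77) and Alpi (1.22), and the part of these cells in the Ada signal was not tested.

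P2rx7, the ATP-gated channel P2X7, which opens at high ATP and can kill T cells (probe set 10525419), was at 11.82 (wildtype) and 11.94 (impaired). The difference of 0.12 was matched or passed in size by 64.5% of all genes. P2rx4, an ATP-gated channel that responds to lower ATP (probe set 10525439), was at 9.02 and 9.35. Its difference of 0.34, or 1.26-fold, was as high or higher in 13% of all genes and in 9.99% of 2542 genes of like brightness. The 2 channel genes lie next to each other on chromosome 5, and Camkk2, the next gene after P2rx4, was at 7.40 (wildtype) and 7.59 (impaired).

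P2ry10 (probe set 10601416) had the lowest difference of the 6, at 11.73 (wildtype) and 11.30 (impaired), 1.35-fold dimmer. It is named for its likeness to the P2Y nucleotide receptors, but the ligand known for it is the lipid lysophosphatidylserine. Its difference of -0.43 was as low or lower in 4.27% of all genes. Differences narrow at high brightness, and of 819 genes of like brightness 1.95% were as low.

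**Figure D2:**
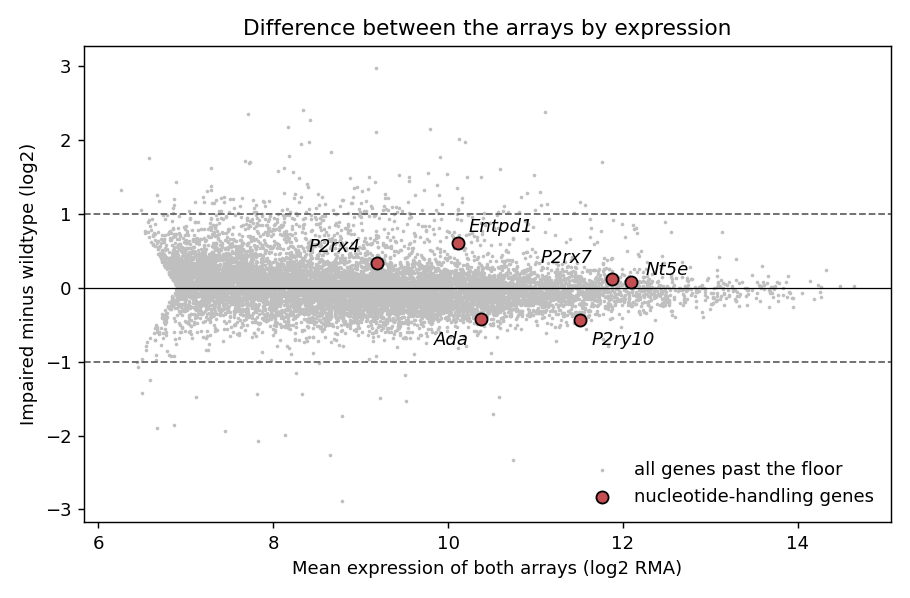
Difference between the arrays (impaired minus wildtype, log2, vertical axis) against the mean of both arrays (log2 RMA, horizontal axis) for the 11124 genes past the floor (grey) and the 6 genes (red, named); dashed lines mark 2-fold. All 6 lie between the dashed lines, Entpd1 in the upper part of the grey cloud at its level and Ada and P2ry10 in the lower part, each with genes farther out.

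The other lysophosphatidylserine receptors were dimmer in the impaired sample as well. Gpr34 was at 9.70 (wildtype) and 9.15 (impaired) (-0.55), and Gpr174 at 10.12 and 9.77 (-0.35). P2ry10b, the gene that follows P2ry10 on the X chromosome and is its paralog, was at 8.64 and 7.94 (-0.70), a value as low or lower in 0.629% of all genes. Gpr174 comes next after P2ry10b, so 3 receptor genes in a row on the X chromosome were dimmer. On the other side, Lpar4, a lysophosphatidic acid receptor, lay below the floor at 5.54 and 5.58. P2ry10b was chosen after its value was seen, as a neighbour of a gene of the set, and whether its probes also detect P2ry10 is not known without their sequences. Among 7 receptors of the lysophosphatidylserine and related lipid or proton receptor list past the floor 4 were dimmer and 3 brighter, with a median of -0.11. Gpr65, a proton-sensing receptor, was at 12.06 and 11.65, and Gpr183, a receptor for oxysterols, went the other way at 9.39 and 9.70.

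Neighbouring genes of the whole set did not share one direction. Of 20 distinct protein-coding genes lying up to 2 places from the 6, 14 passed the floor, and 6 of these were brighter and 8 dimmer. P2ry10b was the only one past 1.5-fold, 1 of 14, against 7.39% of all genes in either direction. Next to Nt5e, Snx14 and Syncrip were dimmer (-0.41 and -0.47) while Nt5e was not.

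Other ectonucleotidases had the highest median of the 8 lists of related genes. Of 15 genes 13 had a value and 10 passed the floor, of which 8 were above 0 and 2 below (median 0.55). Over the 13 with a value 11 were above 0, and the median was 0.45 (Entpd8 passed the floor through the impaired sample alone). Alpi, intestinal alkaline phosphatase, which strips phosphates from nucleotides at the brush border, was at 10.22 (wildtype) and 11.44 (impaired) (1.22), and Akp3, a second intestinal phosphatase, at 9.79 and 10.75 (0.96). Bst1 (CD157), a relative of CD38 that acts on NAD and is found on myeloid and stromal cells, was at 6.94 and 8.14 (1.20). Alpi and Bst1 passed 2-fold, 2 of 10, against 1.46% of all genes in that direction. Alpi is itself an enterocyte marker, and enterocyte and neutrophil markers with a value were brighter by medians of 0.93 and 1.61. Their part in this list was not tested. Entpd5 and Entpd7, intracellular relatives of CD39, were both brighter by 0.55, whereas Entpd4, a Golgi member, differed by -0.13 and Entpd6 by 0.06.

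Few other P2 receptors were bright. Of 12 further P2 receptors with a value 3 passed the floor. The adenosine receptors Adora1 and Adora3 had no value, so no adenosine receptor was measured here. P2ry1, an ADP receptor, was at 7.37 (wildtype) and 7.76 (impaired), and P2ry14, a UDP-sugar receptor, at 7.57 and 7.26. P2ry6, a UDP receptor, was at 6.86 and 7.02, its wildtype value just below the floor. P2rx1, P2rx2, P2rx3, P2rx5 and P2rx6 all lay below the floor in both samples, so of the P2X channels only P2rx4 and P2rx7 passed it.

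Genes for release of ATP and transport of nucleosides were split, with 5 of 9 past the floor brighter and 4 dimmer (median 0.07), and 5 of the 11 with a value brighter and 6 dimmer (-0.04). Slc28a1 and Slc28a3, concentrative nucleoside transporters, differed by 0.61 and 0.56, and Slc17a9, which loads ATP into vesicles, by 0.51. The wildtype values of these 3 lay below the floor, so the sizes are uncertain. Panx1, the pannexin channel through which ATP leaves T cells, was at 10.05 (wildtype) and 9.76 (impaired). Slc29a1, the main equilibrative adenosine transporter, differed by -0.05.

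Enzymes that act on adenosine and its products inside the cell had a median of -0.07, with 5 of 11 brighter and 6 dimmer. Pnp, which degrades the inosine that adenosine deaminase makes, was at 9.47 (wildtype) and 8.93 (impaired). The difference of -0.54 has the direction of that of Ada. Hprt, which salvages the resulting bases, was dimmer by a smaller amount, at 10.73 and 10.44. Adk, which returns adenosine to AMP, was at 7.29 and 7.62, and Ampd3, an AMP deaminase, at 6.51 and 6.92. Dpp4 (CD26), which anchors adenosine deaminase at the cell surface in humans, was at 10.48 and 10.60. It belongs to a list of 3 genes past the floor with Sirt1 (-0.29) and Parp1 (-0.02), both NAD-consuming enzymes, and the median of that list was -0.02.

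The adenosine receptors themselves had no value here. Downstream of them, 16 cyclic AMP signalling genes past the floor were evenly split, 8 brighter and 8 dimmer, with a median of 0.00. Adcy6, an adenylyl cyclase, was highest at 0.72 (6.97 in the wildtype, 7.68 in the impaired sample). Creb1, a transcription factor activated by cyclic AMP, was at 10.69 and 10.33, and Prkar1a, a regulatory subunit of protein kinase A, at 12.35 and 12.02. Crem, which is induced by cyclic AMP, was at 9.28 and 8.96. None passed 2-fold.

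Genes that act after P2X7 had a median of -0.06 over 7 genes, 3 brighter and 4 dimmer. Il1b, the cytokine released when P2X7 opens on myeloid cells, was at 6.48 (wildtype) and 8.10 (impaired). It alone passed 2-fold, 1 of 7, against 1.46% of all genes in that direction, and its wildtype value lay below the floor. Of 13 neutrophil markers with a value 11 were brighter and 2 dimmer in the impaired sample (median 1.61). The part of neutrophils in the Il1b signal was not tested. Pycard, an inflammasome adaptor, differed by 0.39, Casp1, the protease that it recruits, by -0.34, and Adam17, a sheddase, by -0.39. Nlrp3, the sensor, lay below the floor at 5.91 and 5.96. Over all 8 lists together 66 genes passed the floor, 35 brighter and 31 dimmer, with a median of 0.01.

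**Figure D3:**
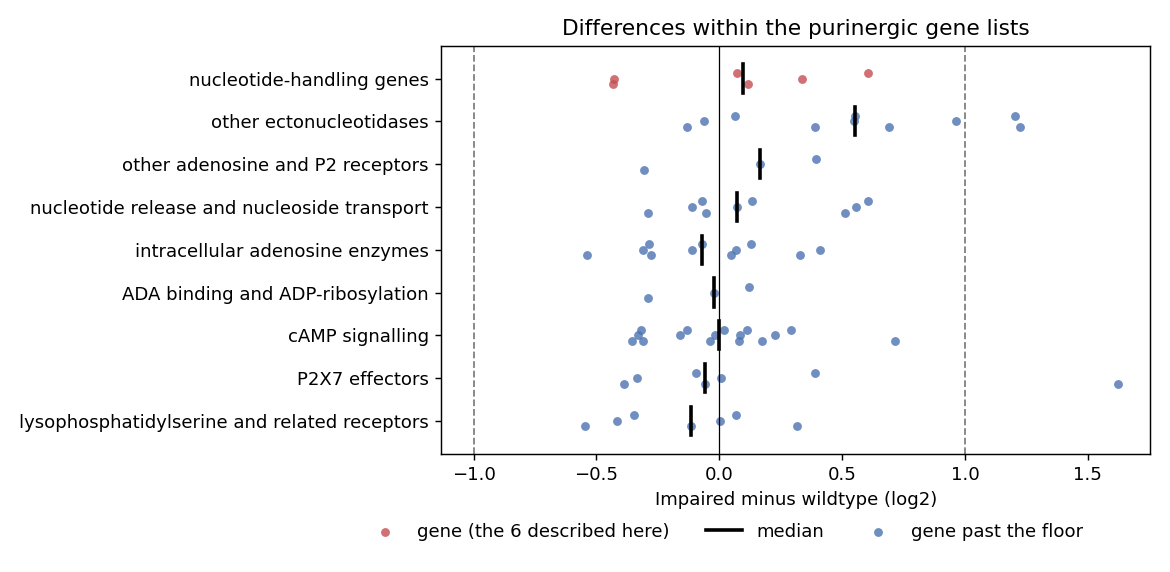
Differences (impaired minus wildtype, log2, horizontal axis) of the 6 genes and of 8 lists of related genes (rows); each point is a gene past the floor, black bars are the medians of those genes and dashed lines mark 2-fold. The other ectonucleotidases sit to the right, with a median of 0.55, and the medians of the other lists lie between -0.11 and 0.16.

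The label of the cells was checked against markers. All 14 T cell and TR1 markers with a value were past the floor, among them Cd3e, Cd4, Il10 and Lag3, and their differences ran from -0.22 (Icos) to 0.10, with a median of -0.04. Entpd1, P2rx4 and P2rx7 lay above all 14, Ada and P2ry10 below all 14, and Nt5e within their range. That range is narrow, and a place outside it is common. Of all genes past the floor, 33% had a difference as high as that of P2rx7 or higher. Genes of other cells were bright in both samples too, among them the goblet cell mucin Muc2 (12.03 and 12.92) and Cd8a, although TR1 cells are CD4 cells. Il10ra, a gene of the IL-10 receptor, was at 9.92 (wildtype) and 12.30 (impaired), and whether its probe set detects the transgene is not known. Goblet and Paneth markers had a median of 0.92 (10 of 10 with a value brighter, led by Ang4 at 1.71, which passed the floor through the impaired sample alone, and Lyz1 at 1.70). Plasma cell markers had one of 0.16 (6 of 8 brighter, Ighm at 1.06, Sdc1 at 0.62) and pancreatic acinar markers of -1.58 (9 of 10 dimmer, Ctrb1 at -2.33, Try5 at -2.26). CD8 and gamma-delta T cell markers had a median of -0.24 (3 of 4 dimmer, Cd8a at -0.70, Trgv1 at -0.40). Of 10 natural killer and mast cell markers 4 were brighter and 6 dimmer (-0.04), and Eomes (0.26) and Kit (0.18) passed the floor. The summed linear signal of the list, impaired over wildtype, was 0.952 for T cell and TR1 markers, 1.79 for enterocyte markers and 3.08 for neutrophil markers.

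**Figure D4:**
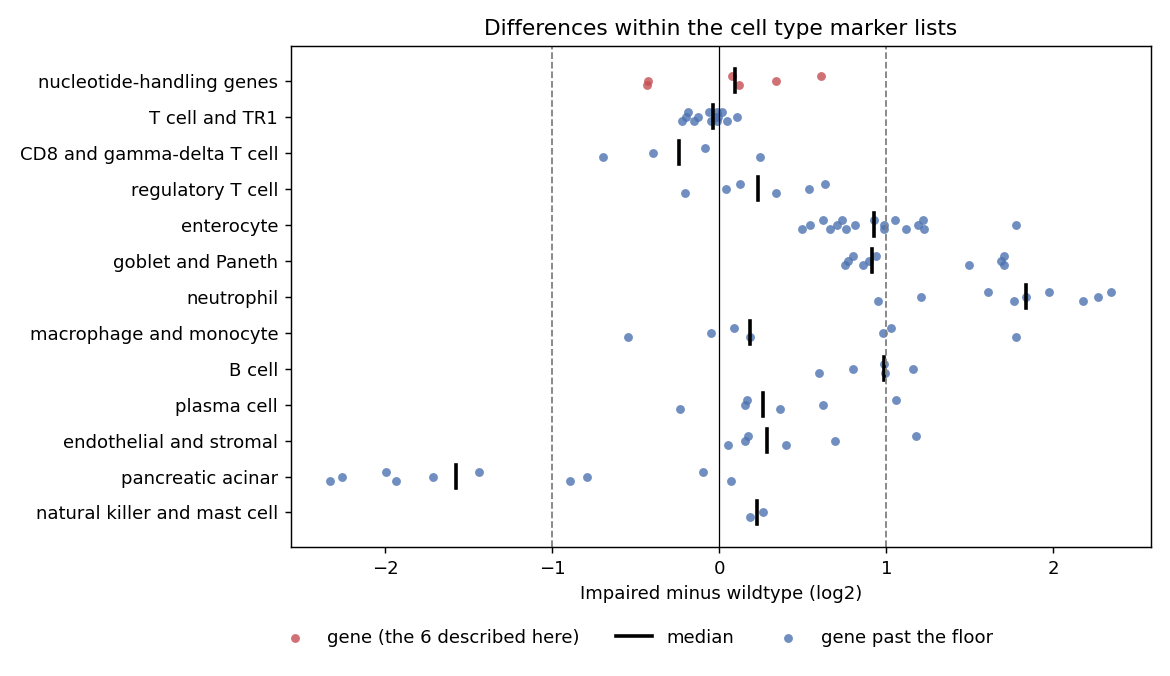
Differences (impaired minus wildtype, log2, horizontal axis) of the 6 genes and of 12 lists of cell type markers (rows); each point is a gene past the floor, black bars are the medians of those genes and dashed lines mark 2-fold. T cell and TR1 markers lie close to 0, enterocyte, goblet and Paneth, neutrophil and B cell markers to the right, and pancreatic markers to the left, while the 6 genes spread from -0.43 to 0.61.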

How the data were processed

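The authors' deposited table holds log2 RMA values of 34760 probe sets on 2 Affymetrix arrays, made with affy and RMA per the submitters' processing notes. For both, version, build and annotation were not given in the sources used here. RMA makes the distributions of the arrays equal and compresses folds of dim probe sets. Only this table was used, so neither background correction nor normalization could be varied.

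Probe sets were named through GEO's platform annotation: 21640 had 1 symbol and were used, 1321 had several and 11799 were not listed. A gene with several probe sets took the one with the highest mean. The floor was the median over probe sets of the mean of both arrays. Differences were impaired minus wildtype, counted at 2-fold and 1.5-fold, with no test. The scaled median absolute deviation of the differences (0.253) stood in for a spread when alternatives were compared. Genes of like brightness had a mean within 0.5, a choice made after the values were seen.

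The members and lists were chosen with earlier results of these data known. Named were the 6 genes, up to 3 genes per related list and 2 per marker list with the largest absolute difference, and Il10ra; others named with values, such as single receptors, enzymes, neighbours and markers, were chosen after their values were seen. Marker lists held 12 cell types and related lists 8 functions. Scripts were tested on simulated data. The tools were Python 3.11.15, with pandas 2.3.3, statsmodels 0.14.6, numpy 2.4.6 and matplotlib 3.10.9.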

Additional observations from a re-analysis of the deposited data

How the results depend on the processing

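Intensity-dependent loess centring, an offset of 32 on the linear scale and averaging over probe sets changed the direction of 0 of 18 differences of the 6 genes. Over these settings Entpd1 ran from 0.59 to 0.67, P2rx4 from 0.32 to 0.39, Ada from -0.43 to -0.36 and P2ry10 from -0.43 to -0.38. Averaging could not change them, since each has 1. With a 1.5-fold rule 1 of the 6 genes, Entpd1, passed in place of 0, along with 4 other ectonucleotidases, 1 transport gene, 1 cyclic AMP gene and 822 of all genes. With the higher floor, the 75th percentile, 120 of all genes, 1 other ectonucleotidase and 0 genes acting after P2X7 passed 2-fold, since fewer genes were counted. None of 39 list medians moved by as much as 0.253, but 6 changed sign. The transport list, at 0.07 before, was at -0.04 without a floor and -0.09 with the higher floor. The other purine receptors, at 0.16 before, were at -0.02 after loess. The cyclic AMP median, 0.00 before and -0.13 with the higher floor, was not counted among the 6. No paired analysis was possible because each genotype has 1 array. Having 1 array per genotype limits the precision throughout.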
